A study of Mus musculus with 6 samples.

Results

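Genes of glycolysis and of the response to low oxygen were examined in conventional dendritic cells positive for CD11c, taken from mice of the inbred BALB/c strain. The list held 36 gene symbols chosen by name, covering carriers of glucose and lactate, glycolytic enzymes, enzymes of lactate and pyruvate, oxygen sensors and targets of the hypoxia-inducible factor. Of these, 30 were measured among 12393 genes in all, 29 under the listed symbol and 1, Ero1l, under its current name Ero1a. Each gene was read from its brightest probe set over all 6 arrays, among the probe sets annotated to that gene alone. Gapdh, Bnip3l, Gpi1, Eno1, Hk3 and Pfkfb4 had no such probe set and entered no test. Dendritic cells take up, process and present antigen to T cells, and the cells measured here were sorted by flow cytometry from spleen (3 arrays) and from lymph nodes (3 arrays). Total RNA was amplified from a small input and hybridised to Affymetrix 3′ microarrays, and all values are log2 of the deposited intensity. The labels name no treatment and no genotype other than the strain, which both groups share. Whether each array stands for its own animal or for a pool is not given, so a p-value here reflects spread among arrays and may be partly or wholly technical.

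Glycolysis splits glucose into pyruvate and yields ATP without oxygen, and lactate dehydrogenase then regenerates the cofactor that keeps it running. When oxygen is scarce, prolyl hydroxylases of the EGLN family stop marking HIF-1α for destruction, and the factor binds short response elements and raises transcription of glucose carriers, glycolytic enzymes and genes such as Vegfa and Bnip3. In dendritic cells, activation through pattern receptors is known to raise glycolysis, and glycolysis is also known to support the shape changes and migration that follow Ccr7.

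Array medians lay between 39.4 and 41.3 intensity units. Itgax, which encodes CD11c, was 9.93 ± 0.22 in spleen-labelled arrays and 10.90 ± 0.06 in lymph node-labelled arrays (SD, n = 3 each; limma adjusted p = 0.0310). Ccl22, Ccr7 and Fscn1, textbook markers of migratory or mature dendritic cells, were 31.3-fold, 2.77-fold and 3.52-fold higher in spleen-labelled arrays. For markers of cells that reach lymph nodes from tissue, the labels would lead to the opposite direction. The cause of this was not tested. Of the 10 migratory or mature markers, 5 passed and all 5 were higher, beside 2.03% of all genes called higher. That list was chosen with earlier results of these data known. Cd83 (-0.46) and Relb (-0.40) had negative differences and did not pass. Because the direction of Ccl22, Ccr7 and Fscn1 was not the one the labels would lead to, each group is called by its label throughout. Differences are given as spleen-labelled minus lymph node-labelled. The summed intensity of 9 conventional dendritic cell markers was 12878 to 18586 in spleen-labelled arrays and 22397 to 23947 in lymph node-labelled arrays. Of the 9 conventional markers, 8 had a negative difference and 2, Itgax and Ciita, passed as lower, beside 1.37% of all genes called lower. Sums for migratory (10 genes), plasmacytoid dendritic cell (9) and T cell (8) markers were higher in every spleen-labelled array than in any lymph node-labelled array. All 9 plasmacytoid markers had a positive difference and 3, Ccr9, Blnk and Klk1, passed as higher, beside 2.03% of all genes called higher. Sums for B cell (7), neutrophil (8), macrophage (10) and erythroid (6) markers were lower in every spleen-labelled array, and those for NK cell (7), plasma cell (5) and stromal (7) markers overlapped. Single genes carried some of these sums: without Cd28 the T cell sum, and without Cd22 the B cell sum, overlapped between the groups. The erythroid sum was 723.1 to 1149.3 in spleen-labelled arrays and 1399 to 1723.8 in lymph node-labelled arrays. Most of it came from Tfrc, which is also among the further hypoxia-inducible genes below. Without Tfrc the other 5 genes, all low in intensity, summed to 62.6 to 71.1 in spleen-labelled arrays and 71.6 to 90.6 in lymph node-labelled arrays. The stromal sum overlapped only with Pecam1 in it. Without that gene it was 148.3 to 225.5 in spleen-labelled arrays and 114.5 to 137.1 in lymph node-labelled arrays. The bacterial poly-A control probe sets averaged 8.41 to 9.06 in spleen-labelled arrays, against 7.39 to 7.96 in lymph node-labelled arrays. The Gapdh control probe sets for the 5′ end minus those for the 3′ end came to -3.44 to -3.14 in spleen-labelled arrays and -2.79 to -2.60 in lymph node-labelled arrays. The same difference for the actin control probe sets overlapped between the groups. It was 0.18 to 0.33 in spleen-labelled arrays and 0.17 to 0.35 in lymph node-labelled arrays. The part of these cell type and control differences in the results below was not tested, and in bulk samples fewer cells of a type and less RNA per cell cannot be told apart.

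Of the 30 measured members, 3 passed an adjusted p of 0.05 in limma, beside 3.40% of all genes tested. Eno2, the neuronal-type enolase, and Pfkfb3, the kinase that makes the strongest known activator of phosphofructokinase, were higher in spleen-labelled arrays, where 2.03% of all genes were called higher. Slc2a3, the high-affinity glucose carrier GLUT3, was lower there, where 1.37% of all genes were called lower. The other 27 members did not pass. The groups did not overlap for 12 members, 7 of them higher and 5 lower in spleen-labelled arrays, beside 24.5% of all genes (11.8% higher, 12.7% lower). The median log2 difference was 0.13 over the members and -0.01 over all genes, with a range over the members of -1.11 to 2.44. The 3 calls depended on which arrays were used: 0 members passed in limma without spleen array 1, lymph node array 1 or lymph node array 2, while 8, 6 and 8 members had an unadjusted p under 0.05 in those fits. The calls among all genes fell in the same fits, to 130, 56 and 47 of 12393, against 421 with all arrays, with 1996, 1606 and 1618 at an unadjusted p under 0.05. With the poly-A level, the plasmacytoid marker level or the Gapdh 5′ to 3′ difference as a covariate, limma called 0 members, and 1, 6 and 0 had an unadjusted p under 0.05. Those fits called 0, 1 and 0 of all genes, with 701, 1818 and 787 at an unadjusted p under 0.05, and so say little about the members. The poly-A level, the Gapdh difference and the summed plasmacytoid markers do not overlap between the groups, so their part and the labels' part cannot be told apart with these arrays.

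**Figure D1:**
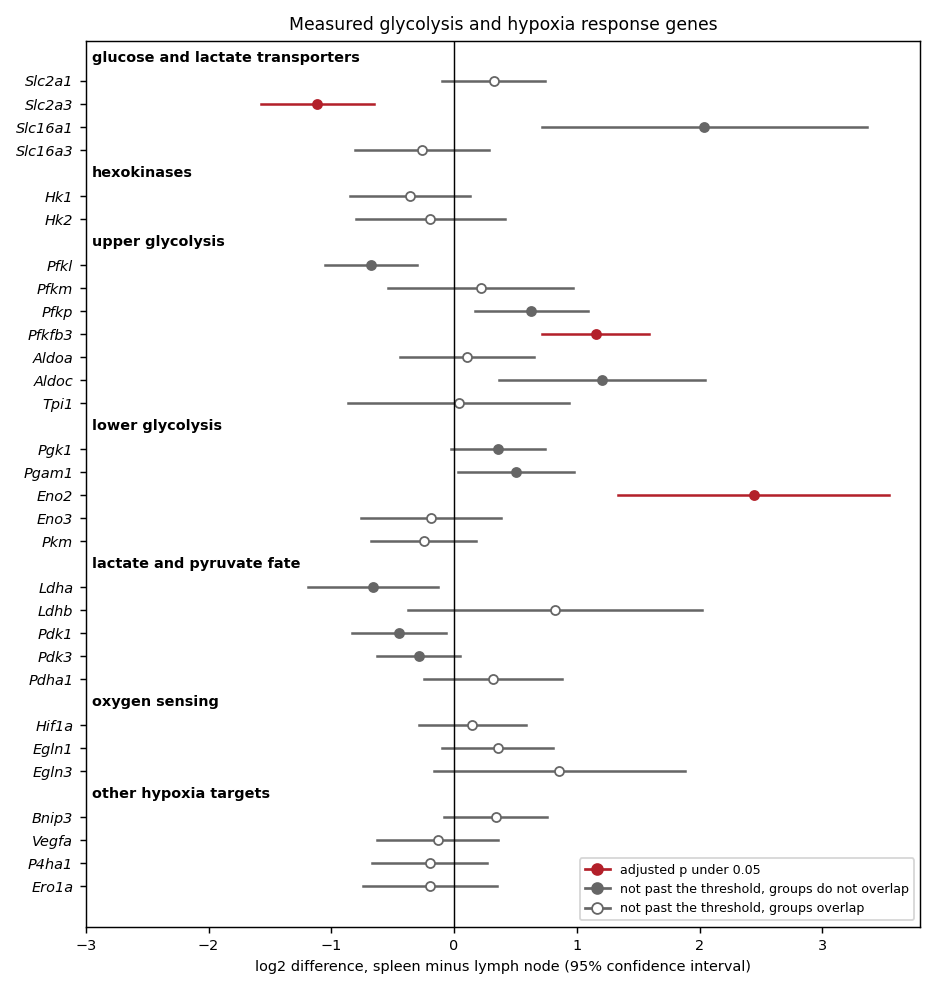
Log2 differences (spleen minus lymph node, x axis) of the 30 measured members with 95% confidence intervals, ordered by role. Eno2 and Pfkfb3 lie to the right and Slc2a3 to the left in red (adjusted p under 0.05), and the filled grey points are the other 9 members whose groups do not overlap.

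Promoter windows are shown for the called members Pfkfb3 and Eno2, for Slc16a1, whose difference was next in size to that of Eno2, and for Pgk1 and Ldha, textbook targets of HIF-1α, so that the core of the hypoxia response element can be looked for in them. Windows of 300 bases, 250 before and 50 after a start site, came from a RefSeq table of build GRCm38.p6, which held 41 windows for 29 of the 30 measured members, all but Slc2a3. ACGTG or GCGTG, searched on both strands, occurred in 33 of the 41 windows (80.5%) and in 43.8% of all 32851 windows of the table. The member windows were also richer in G and C, with a median of 62.3% against 52.7% for all windows, and ACGTG is also part of the E-box CACGTG. Windows of one gene can overlap and count the same match, as for Aldoa and Pfkm. The full set of windows covers 27025 genes and was not limited to the genes measured here. A match describes letters and is not evidence of binding. Capitals mark each match on either strand.
Pfkfb3 upstream window, chr2:11553880-11554179, minus strand: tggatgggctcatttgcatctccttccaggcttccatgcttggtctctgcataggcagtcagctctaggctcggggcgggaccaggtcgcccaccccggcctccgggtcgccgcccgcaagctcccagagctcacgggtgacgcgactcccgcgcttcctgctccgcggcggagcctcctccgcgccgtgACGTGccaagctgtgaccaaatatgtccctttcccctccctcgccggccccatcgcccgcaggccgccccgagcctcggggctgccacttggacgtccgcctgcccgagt
Pfkfb3 downstream window, chr2:11502041-11502340, minus strand: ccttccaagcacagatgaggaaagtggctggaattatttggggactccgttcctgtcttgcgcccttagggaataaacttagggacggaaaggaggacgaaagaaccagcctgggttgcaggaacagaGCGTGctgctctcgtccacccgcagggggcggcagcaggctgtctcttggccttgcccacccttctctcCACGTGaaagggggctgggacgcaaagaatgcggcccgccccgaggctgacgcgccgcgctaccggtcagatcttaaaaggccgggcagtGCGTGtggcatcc
Eno2 window, chr6:124769624-124769923, minus strand: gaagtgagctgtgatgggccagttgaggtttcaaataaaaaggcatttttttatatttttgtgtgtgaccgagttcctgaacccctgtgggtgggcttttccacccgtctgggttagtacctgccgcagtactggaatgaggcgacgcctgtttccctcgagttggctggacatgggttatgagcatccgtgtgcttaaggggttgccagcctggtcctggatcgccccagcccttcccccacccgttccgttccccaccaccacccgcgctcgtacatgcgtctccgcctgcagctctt
Slc16a1 window, chr3:104638414-104638713, plus strand: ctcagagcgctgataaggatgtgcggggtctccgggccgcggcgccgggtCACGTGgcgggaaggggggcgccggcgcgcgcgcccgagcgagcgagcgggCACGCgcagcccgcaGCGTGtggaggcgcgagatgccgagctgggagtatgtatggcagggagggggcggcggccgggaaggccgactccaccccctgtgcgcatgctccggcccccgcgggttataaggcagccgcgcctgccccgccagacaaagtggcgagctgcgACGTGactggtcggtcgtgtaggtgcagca
Pgk1 window, chrX:106186850-106187149, plus strand: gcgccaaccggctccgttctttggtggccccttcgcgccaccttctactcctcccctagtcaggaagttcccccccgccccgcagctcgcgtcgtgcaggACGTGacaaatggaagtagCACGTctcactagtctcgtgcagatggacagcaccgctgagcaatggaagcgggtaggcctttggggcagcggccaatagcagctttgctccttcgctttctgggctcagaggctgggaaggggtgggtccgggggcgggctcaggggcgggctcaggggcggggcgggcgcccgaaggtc
Ldha upstream window, chr7:46845554-46845853, plus strand: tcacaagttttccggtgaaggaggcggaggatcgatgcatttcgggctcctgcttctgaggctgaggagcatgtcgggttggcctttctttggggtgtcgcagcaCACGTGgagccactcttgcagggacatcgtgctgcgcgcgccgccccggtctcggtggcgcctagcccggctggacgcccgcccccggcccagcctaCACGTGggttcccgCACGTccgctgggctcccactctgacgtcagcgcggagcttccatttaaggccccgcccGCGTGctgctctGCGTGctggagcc
The Eno2 window held 0 matches, and the Ldha window shown held 7 matches in 5 separate stretches. A second Ldha window, chr7:46846832-46847131, held 2 matches. Pfkfb3 had 1 match in its upstream window and 4 matches in its downstream window, where CACGTG stands alone once between a pair of GCGTG stretches.

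Among the carriers, the glucose carriers Slc2a3 and Slc2a1 and the lactate carriers Slc16a1 and Slc16a3 had differences of opposite sign within each pair. Slc2a3 stood at 8.62, 8.95 and 8.69 in spleen-labelled arrays, against 10.05, 10.02 and 9.53 in lymph node-labelled arrays. All 3 spleen-labelled arrays were below all 3 lymph node-labelled arrays, a 2.16-fold lower level (log2 difference -1.11 ± 0.20 SE, limma adjusted p = 0.0327). With 1 array left out the difference was -1.28 to -1.02, and it passed in 2 of the 6 such fits, without spleen array 2 and without lymph node array 3 (adjusted p = 0.0285 to 0.147). All 4 Slc2a3 probe sets had a negative difference, at -1.11, -1.05, -0.92 and -0.36, and 2 of them passed over all probe sets, where 2.78% of probe sets did. Both that passed have designs that can cross-hybridise, and without such designs the gene is read from the probe set at -0.36 (adjusted p = 0.308). Slc2a1, the widely expressed carrier GLUT1, measured 9.37, 9.57 and 9.04 in spleen-labelled arrays, against 9.04, 9.04 and 8.92 in lymph node-labelled arrays. Its groups overlapped, with a difference of 0.32 ± 0.18 (SE, adjusted p = 0.398).

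Slc16a1, the lactate carrier MCT1, had 6.53, 6.29 and 4.57 in spleen-labelled arrays, against 2.89, 3.95 and 4.44 in lymph node-labelled arrays. Its groups did not overlap, but spleen array 3 lay close to lymph node array 3, and the difference of 2.04 ± 0.57 did not pass (SE, limma adjusted p = 0.102). Without spleen array 3 it was 2.65 and passed (adjusted p = 0.0303), and the other 5 fits with 1 array left out did not pass, down to 1.601 without lymph node array 1 (adjusted p = 0.305). With log2 of the value plus 16 it was 1.29 (adjusted p = 0.164). The lowest value, 2.89, is near the range of the Trpn control, a bacterial transcript with very low values here, 1.63 to 2.77, so the size of the difference is uncertain. Slc16a3, the lactate exporter MCT4 and a textbook HIF-1α target, had a difference of -0.26 ± 0.24 (SE, adjusted p = 0.619).

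The hexokinases trap glucose in the cell by phosphorylation. Hk2, the HIF-responsive isoform, had 7.72, 8.06 and 7.11 in spleen-labelled arrays, against 8.07, 7.72 and 7.67 in lymph node-labelled arrays. Hk1 differed by -0.36 ± 0.21 (SE, adjusted p = 0.421) and Hk2 by -0.19 ± 0.26 (SE, adjusted p = 0.760), and both had overlapping groups. The 95% intervals ran from -0.85 to 0.13 for Hk1 and from -0.80 to 0.41 for Hk2.

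Phosphofructokinase, which commits sugar to glycolysis, is built from liver (Pfkl), muscle (Pfkm) and platelet (Pfkp) subunits, and its activator fructose 2,6-bisphosphate is made by PFKFB enzymes. Pfkfb3 stood at 10.16, 9.98 and 9.86 in spleen-labelled arrays, against 8.80, 8.61 and 9.12 in lymph node-labelled arrays. Every spleen-labelled array was above every lymph node-labelled array, a 2.22-fold higher level (1.15 ± 0.19 SE, limma adjusted p = 0.0242). Its second probe set gave 1.20 ± 0.20 (SE, adjusted p = 0.0312 over all probe sets), with 9.42, 9.43 and 9.03 in spleen-labelled arrays and 7.98, 7.91 and 8.41 in lymph node-labelled arrays. Both Pfkfb3 probe sets separated the groups. With 1 array left out the gene's difference was 1.03 to 1.29, and it passed in 3 of the 6 such fits (adjusted p = 0.0284 to 0.121).

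The phosphofructokinase subunits had differences of opposite sign. Pfkl had 5.88, 6.21 and 6.20 in spleen-labelled arrays, against 6.84, 6.75 and 6.74 in lymph node-labelled arrays. Pfkp had 7.89, 7.81 and 7.53 in spleen-labelled arrays, against 6.80, 7.28 and 7.27 in lymph node-labelled arrays. Neither had overlapping groups, and neither passed: the differences were -0.68 ± 0.16 for Pfkl (SE, limma adjusted p = 0.0660) and 0.63 ± 0.20 for Pfkp (SE, adjusted p = 0.134). Both probe sets of each of these genes had the same sign, and the dimmer one of each had overlapping groups. Pfkl passed in limma with the median-level filter (adjusted p = 0.0429), log2 of the value plus 16 (adjusted p = 0.0444) and array weights (adjusted p = 0.0400). Pfkm differed by 0.22 ± 0.32 (SE, adjusted p = 0.787). 

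Aldolase cleaves the doubly phosphorylated sugar, and triose phosphate isomerase interconverts the products. Aldoc, the brain-type aldolase, had 4.31, 5.58 and 4.39 in spleen-labelled arrays, against 3.15, 3.61 and 3.90 in lymph node-labelled arrays. The groups did not overlap, the difference of 1.21 ± 0.36 did not pass (SE, limma adjusted p = 0.119), and the second probe set had the opposite sign, -0.30. The Aldoc values are low, and with log2 of the value plus 16 the difference was 0.65 (adjusted p = 0.215). Aldoa, the main aldolase of most tissues, differed by 0.10 ± 0.24 (SE, adjusted p = 0.872). Tpi1 had 8.53, 8.36 and 6.95 in spleen-labelled arrays, against 7.99, 7.80 and 7.94 in lymph node-labelled arrays. Spleen array 3 was the lowest of the 6 arrays for all 3 Tpi1 probe sets, and the groups' difference was 0.04 ± 0.39 (SE, adjusted p = 0.974).

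**Figure D2:**
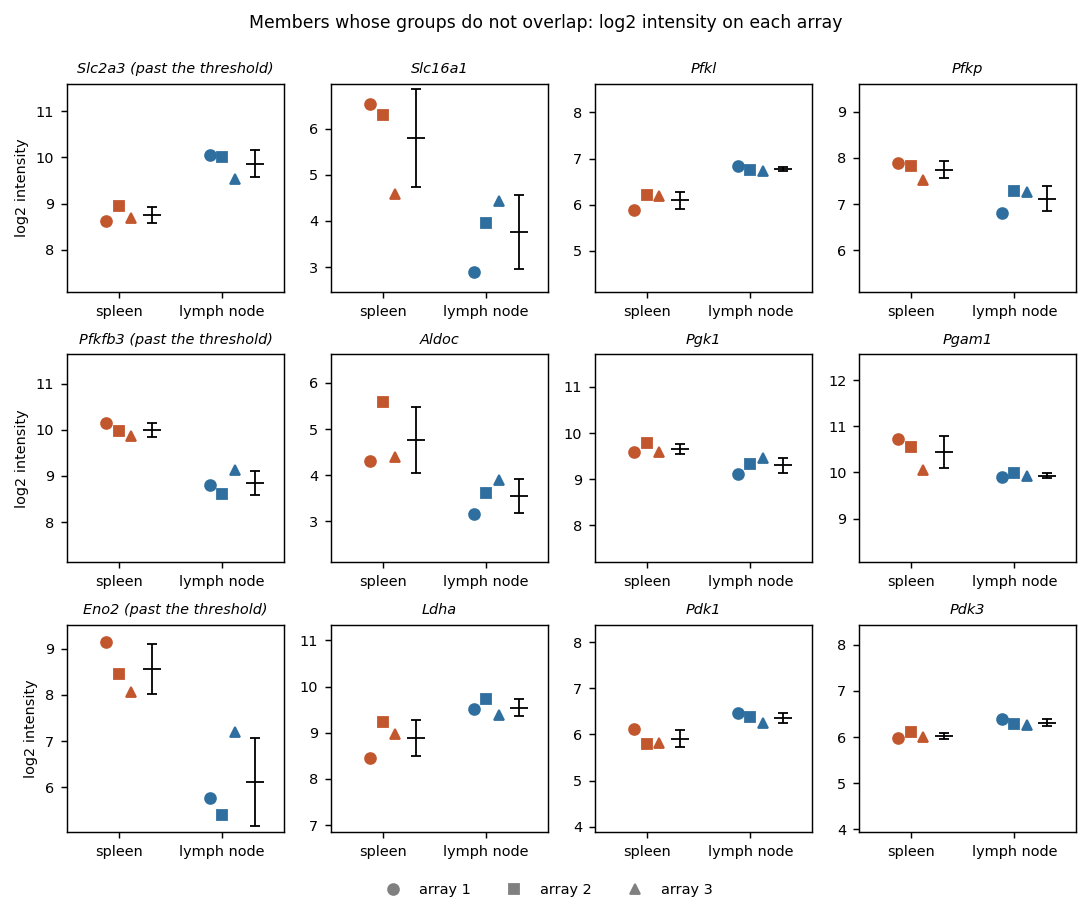
Log2 intensity (y axis, each panel spanning the same range of log2 units) on each array for the 12 members whose groups do not overlap. Symbols number the arrays, and the bar with whiskers is the mean ± SD of 3 arrays: Eno2, Pfkfb3 and Slc2a3 leave wide gaps between the groups, while spleen array 3 lies close to the lymph node-labelled arrays for Slc16a1 and Pgam1.

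In the later steps of the pathway, which yields ATP, Eno2 had the largest difference of all 30 members. It stood at 9.15, 8.45 and 8.07 in spleen-labelled arrays, against 5.76, 5.40 and 7.19 in lymph node-labelled arrays. The groups did not overlap, and lymph node array 3 was well above the other two of its group. The level was 5.43-fold higher in spleen-labelled arrays (2.44 ± 0.48 SE, limma adjusted p = 0.0387). Eno2 had a single probe set, so no second one could be set beside it. With 1 array left out its difference was 2.08 to 2.98, and it passed in 2 of the 6 such fits, without spleen array 3 and without lymph node array 3. With log2 of the value plus 16 the call was lost (2.18, adjusted p = 0.0701). Eno3, the muscle-type enolase, had 8.31, 7.87 and 7.77 in spleen-labelled arrays, against 8.38, 8.41 and 7.72 in lymph node-labelled arrays. Its groups overlapped, and its difference was -0.18 ± 0.25 (SE, adjusted p = 0.756).

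Pgk1, phosphoglycerate kinase, had 9.59, 9.79 and 9.60 in spleen-labelled arrays, against 9.12, 9.33 and 9.46 in lymph node-labelled arrays by its brightest probe set. The groups did not overlap and the difference of 0.36 ± 0.16 did not pass (SE, limma adjusted p = 0.294). Both other Pgk1 probe sets, of designs that can cross-hybridise, had larger differences, 1.01 (adjusted p = 0.0497 over all probe sets) and 0.95 (adjusted p = 0.0460). As the mean of its 3 probe sets, Pgk1 passed at 0.77 (adjusted p = 0.0468). Pgam1, phosphoglycerate mutase, had 10.72, 10.55 and 10.04 in spleen-labelled arrays, against 9.89, 9.99 and 9.91 in lymph node-labelled arrays. The difference of 0.50 ± 0.20 did not pass (SE, adjusted p = 0.234). Pkm, the pyruvate kinase that ends the pathway, differed by -0.25 ± 0.18 (SE, adjusted p = 0.540) with overlapping groups.

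Lactate dehydrogenase and the pyruvate dehydrogenase kinases decide whether pyruvate becomes lactate or enters mitochondria. Ldha, the subunit that favours lactate, had 8.45, 9.23 and 8.98 in spleen-labelled arrays, against 9.52, 9.73 and 9.39 in lymph node-labelled arrays. Pdk1, which blocks pyruvate dehydrogenase, had 6.12, 5.80 and 5.83 in spleen-labelled arrays, against 6.46, 6.38 and 6.25 in lymph node-labelled arrays. Pdk3, another kinase of the same enzyme, had 5.98, 6.10 and 5.995 in spleen-labelled arrays, against 6.40, 6.28 and 6.27 in lymph node-labelled arrays. For these 3 genes every spleen-labelled array lay below every lymph node-labelled array, and none of the 3 passed. Their differences were -0.66 ± 0.23 for Ldha (SE, limma adjusted p = 0.171), -0.45 ± 0.17 for Pdk1 (SE, adjusted p = 0.192) and -0.29 ± 0.15 for Pdk3 (SE, adjusted p = 0.344). Only the brighter of the Pdk1 probe sets had that sign, the other being at 0.25. Pdha1, the catalytic subunit of pyruvate dehydrogenase, differed by 0.31 ± 0.24 (SE, adjusted p = 0.556).

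Ldhb, the subunit that favours pyruvate, varied within the spleen-labelled group, with 7.11, 6.08 and 8.45 there and 6.44, 6.27 and 6.47 in lymph node-labelled arrays. Spleen array 3 was the highest of the 6 arrays in all 4 Ldhb probe sets. That array also had the highest summed intensity of plasmacytoid markers, 5280, against 1577.1 and 1942.5 in the other spleen-labelled arrays. Spleen array 2, at 1577.1, was above the lymph node-labelled arrays in that sum (556.4 to 1210.3). By the brightest probe set it nevertheless had the lowest Ldhb value, 6.08. A link between Ldhb and these markers was not tested. The group difference of 0.82 ± 0.52 for Ldhb did not pass (SE, limma adjusted p = 0.450).

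None of the 3 oxygen-sensing genes passed by its brightest probe set. Hif1a, which encodes HIF-1α, had 8.50, 8.29 and 7.94 in spleen-labelled arrays, against 8.08, 8.22 and 7.99 in lymph node-labelled arrays, a difference of 0.15 ± 0.19 (SE, limma adjusted p = 0.743). A dimmer Hif1a probe set had 7.39, 7.23 and 7.57 in spleen-labelled arrays, against 6.58, 6.19 and 6.33 in lymph node-labelled arrays. That probe set passed over all probe sets, with a difference of 1.03 ± 0.18 (SE, adjusted p = 0.0327), and all 4 Hif1a probe sets had a positive sign, from 0.15 to 1.03. The position of these probe sets along the transcript was not analysed here. Egln1, the main oxygen sensor, had 7.51, 7.13 and 7.77 in spleen-labelled arrays, against 7.16, 7.10 and 7.09 in lymph node-labelled arrays. Its probe sets disagreed in sign, at 0.36 and -0.57, and neither passed. Egln3, a hypoxia-inducible member of the family, differed by 0.86 ± 0.44 (SE, adjusted p = 0.348), with values of 2.41 to 4.59 that reach into the range of the Trpn control.

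The other hypoxia targets had overlapping groups, and none passed. Bnip3, a mitochondrial receptor for autophagy, had 5.75, 5.65 and 5.95 in spleen-labelled arrays, against 5.43, 5.68 and 5.23 in lymph node-labelled arrays (0.34 ± 0.18 SE, limma adjusted p = 0.371). Vegfa, the vascular growth factor, had 3.91, 4.60 and 4.03 in spleen-labelled arrays, against 4.23, 4.41 and 4.29 in lymph node-labelled arrays (-0.13 ± 0.21 SE, adjusted p = 0.801). P4ha1, a collagen prolyl hydroxylase, differed by -0.20 ± 0.20 (SE, adjusted p = 0.672), and Ero1a, an oxidase of disulfide formation, by -0.20 ± 0.24 (SE, adjusted p = 0.725). The 95% interval for Vegfa ran from -0.62 to 0.36.

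**Figure D3:**
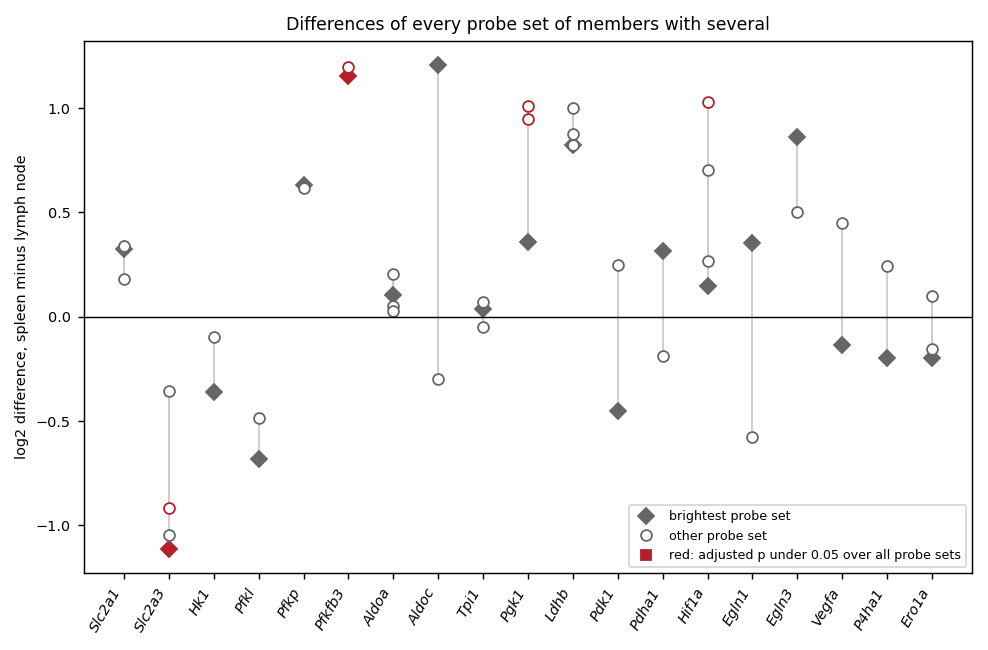
Log2 difference (spleen minus lymph node, y axis) of every probe set of the 19 members with several. Diamonds are the brightest probe set, circles the others, and red marks an adjusted p under 0.05 over all probe sets: both Pfkfb3 probe sets are red, as are 2 of the 4 of Slc2a3, the dimmer ones of Pgk1 and 1 of the 4 of Hif1a.

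The 30 members had 61 probe sets, of which 8 passed over all probe sets, 6 higher and 2 lower in spleen-labelled arrays, beside 2.78% of all probe sets. They belonged to Pfkfb3 (2), Pgk1 (2), Slc2a3 (2), Hif1a (1) and Eno2 (1). Of the 19 members with several probe sets, 11 kept one sign throughout and 8 were mixed. The mixed genes were Aldoc, Tpi1, Pdk1, Pdha1, Egln1, Vegfa, P4ha1 and Ero1a, none of which passed in any probe set.

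The log2 ratio of related members is given for 9 pairs picked after their values had been seen, as a description with no test. No share over other gene pairs was computed. Eno2 over Eno3 was higher in every spleen-labelled array than in any lymph node-labelled array, with a difference of group means of 2.63. The same held for Slc2a1 over Slc2a3 (1.44), Pfkp over Pfkl (1.31) and Aldoc over Aldoa (1.10). Each of these ratios holds a member whose own groups do not overlap, so their separation largely repeats the values given above. The other 5 ratios overlapped between the groups, among them Slc16a1 over Slc16a3 (2.30), Ldhb over Ldha (1.48) and Hk2 over Hk1 (0.16).

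**Figure D4:**
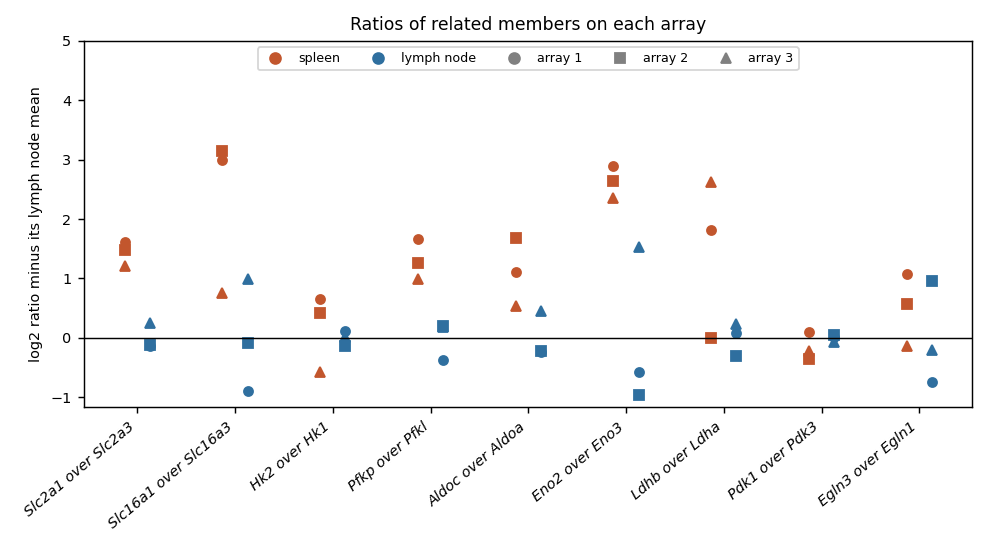
Log2 ratio of 9 pairs of related members on each array, drawn relative to the mean of the lymph node-labelled arrays (y axis, log2 units). For Slc2a1 over Slc2a3, Pfkp over Pfkl, Aldoc over Aldoa and Eno2 over Eno3 all 3 spleen-labelled arrays lie above all 3 lymph node-labelled arrays.

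Neighbouring pathways held few calls. Among 98 measured genes of 7 further lists, 1 was higher and 1 lower in spleen-labelled arrays, 2.04% in all, beside 3.40% of all genes. Both belonged to the further hypoxia-inducible genes, of which 21 were measured. Ndrg1, a stress-responsive gene induced by hypoxia, had 7.30, 8.19 and 7.69 in spleen-labelled arrays, against 5.54, 5.46 and 5.57 in lymph node-labelled arrays. The level was 4.60-fold higher, without overlap (2.20 ± 0.23 SE, limma adjusted p = 0.00605), and it passed whichever single array was left out (adjusted p = 0.0118 to 0.0472). Read without cross-hybridising designs the Ndrg1 difference was 1.28 (adjusted p = 0.0382), and as the mean of its probe sets 1.09 (adjusted p = 0.0438). Ddit4, an inhibitor of mTOR complex 1 that is also induced by hypoxia, had 8.44, 9.33 and 9.62 in spleen-labelled arrays, against 10.30, 11.11 and 10.91 in lymph node-labelled arrays. It was 3.12-fold lower (-1.64 ± 0.34 SE, limma adjusted p = 0.0456) and passed in 1 of the 6 fits with 1 array left out, the one without spleen array 3. With the poly-A, plasmacytoid marker or Gapdh covariate, neither gene passed. The median over the list was -0.02.

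In the other lists 0 genes passed in limma. Their counts at an unadjusted p under 0.05 stand beside 19.0% of all genes. Of 21 further glycolysis and pyruvate genes (median -0.11) 2 had an unadjusted p under 0.05, the closest being Adpgk, an ADP-dependent glucokinase, at 1.19 ± 0.35 (SE, adjusted p = 0.113) and Gpd1, a glycerol phosphate dehydrogenase, at -0.44 ± 0.16 (SE, adjusted p = 0.188). Of 9 pentose phosphate genes (median -0.07) 2 did, led by Taldo1, transaldolase, at -1.01 ± 0.28 (SE, adjusted p = 0.0985) and Pgd at 0.50 ± 0.19 (SE, adjusted p = 0.201). Of 9 glycogen genes (median 0.15) 4 did, led by Pygl, glycogen phosphorylase, at 0.93 ± 0.27 (SE, adjusted p = 0.107) and Gys1, glycogen synthase, at -0.56 ± 0.19 (SE, adjusted p = 0.165). The tricarboxylic acid cycle list (18 measured, median -0.09, 3 with an unadjusted p under 0.05) was led by Idh3b at -0.56 ± 0.15 (SE, adjusted p = 0.0868) and Fh1 at -0.59 ± 0.20 (SE, adjusted p = 0.165). Among 9 regulators of the HIF pathway (median 0.20, 1 with an unadjusted p under 0.05) Vhl, the ligase subunit that binds hydroxylated HIF-1α, was at 0.64 ± 0.17 (SE, adjusted p = 0.0940) and Siah2 at 0.51 ± 0.24 (SE, adjusted p = 0.303). Among 11 genes of the Myc and mTOR axis (median -0.27, 4 with an unadjusted p under 0.05) Akt1 was at -0.71 ± 0.15 (SE, adjusted p = 0.0523) and Rictor at -0.43 ± 0.16 (SE, adjusted p = 0.193).

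Spread within the groups was uneven. The SD over arrays was larger in the spleen-labelled group for 19 of the 30 members (63.3%), beside 66.1% of all genes. The median SD of the members was 0.33 log2 units in spleen-labelled arrays and 0.20 in lymph node-labelled arrays, beside 0.26 and 0.19 over all genes.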

How the data were processed

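The members and all gene lists were chosen with earlier results of these data known. The deposited values are probe set intensity on a linear scale, and the columns' like medians show that the arrays were put on a common scale before deposit. The submitters' processing notes name RMA and limma without role or version, and a genome build is not given in the sources used here. The table held 22690 probe sets, 64 of them controls. Probe sets were named from the platform annotation, 20380 with 1 gene and 691 with several, and each gene was read from the brightest of its own. Log2 values were fitted with limma 3.58.1 (lmFit and eBayes) in R 4.3.3, spleen against lymph node, two-sided. P-values were adjusted by Benjamini-Hochberg across the 12393 genes (or, where stated, across probe sets), and the threshold was 0.05. No filter on level was applied. The number of arrays limits the precision. All measured members are described; from each other list, genes past the threshold or else the 2 with the smallest adjusted p are named. Alternatives covered normalization, offset, level filter, eBayes options, weights, block, covariates, probe sets, thresholds and left-out arrays; the Gapdh covariate was added after seeing the data. The fit was tested on simulated arrays with independent noise. These held no poly-A, Gapdh or cell type difference between the groups, so that test does not bear on such differences in the real arrays.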

Additional observations from a re-analysis of the deposited data

How the results depend on the processing

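The count of 3 members past the threshold was 2 to 4 with log2 of the value plus 16, a second quantile normalization, median centring, a median-level filter, eBayes with trend and robust, the replicate block, both arrays numbered 3 left out, probe sets averaged per gene, cross-hybridising designs left out and a threshold of 0.1. It was 6 with array weights, 0 at a threshold of 0.01 (10 at an unadjusted p under 0.05, beside 19.0% of all genes), 0 with each of the 3 covariates, and 0 to 3 with 1 array left out. A like count can hold other members: with log2 of the value plus 16, Pfkl passed and Eno2 did not. The calls among all genes moved too: 421 became 764 with array weights, 63 at 0.01, 916 at 0.1, 0, 1 and 0 with the poly-A, plasmacytoid and Gapdh levels, and 47 to 475 with 1 array left out. The 2 pathway genes became 5 with array weights, 1 at 0.01, 8 at 0.1, 0 with each covariate (7, 19 and 9 at an unadjusted p under 0.05 with the poly-A, plasmacytoid and Gapdh levels), and 1 to 3 with 1 array left out. The members' median of 0.13 was 0.28 with the poly-A level, 0.28 with the plasmacytoid level and -0.13 with the Gapdh level, and 0.05 to 0.16 with 1 array left out. The cause of the changes was not tested.

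Of 665 single-gene values over 32 genes and 21 alternatives, 569 kept sign and side of the threshold, 38 lost the call, 9 gained it and 49 changed sign, 33 of these with a covariate. Genes without a call in the main fit count as kept whenever they stay uncalled, also in the covariate fits, where almost no gene passed. Pfkfb3, Slc2a3, Ndrg1 and Ddit4 kept their sign in all 21, and Eno2 in 20 of 21 (adjusted p from 0.0111 to 0.986). The other thresholds, the median-level filter, the eBayes options and the replicate block leave the difference itself unchanged. A sign could not change in those alternatives, so these counts overstate how far the signs were tried. With 1 array left out, sign changes touched Aldoa (-0.019 to 0.33), Ero1a (-0.35 to 0.040), Hk2 (-0.41 to 0.067), Pfkm (-0.071 to 0.44), Tpi1 (-0.25 to 0.54) and Vegfa (-0.34 to 0.0016). Without both arrays numbered 3, Pfkm was -0.026, Aldoa -0.052 and Ero1a 0.13. As the mean of all probe sets, Egln1 was -0.11, Vegfa 0.16 and P4ha1 0.021. With the poly-A level, Hk1 was 0.11, Hk2 0.86, Pfkm -0.93, Eno3 0.074, Ldhb -1.05, Egln1 -0.15, Egln3 -0.17, Vegfa 0.46, P4ha1 0.55 and Ero1a 0.26. With the plasmacytoid level, Hk2 was 0.65, Pfkm -0.64, Aldoa -0.053, Eno3 0.49, Pkm 0.21, Ldhb -0.91, Egln1 -0.032, Vegfa 0.11, P4ha1 0.091 and Ero1a 0.27. With the Gapdh level, Slc16a1 was -1.73, Slc16a3 0.25, Hk1 0.79, Pfkp -0.23, Tpi1 -1.91, Pgam1 -0.39, Eno2 -0.23, Ldha 0.30, Pdha1 -0.15, Hif1a -0.52, Egln3 -0.97, Vegfa 0.15 and P4ha1 0.17. The replicate block gave 3 members (2 higher, 1 lower) and 519 of all genes against 421 without it. Deviations of same-numbered arrays correlated at 0.02, 0.24 and 0.16, and those of unlike-numbered arrays at -0.28 to 0.13. These values do not settle whether the numbers pair the arrays, and the main fit does not pair arrays.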

Other observations

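Probe sets shared with other genes or used as controls give further values for 2 members left out of the fit. The 3 probe sets of Bnip3l, a mitochondrial autophagy receptor, are shared with a pseudogene and differed by 0.25, 0.085 and 0.14. The Gapdh control probe sets differed by -0.09 at the 3′ end, -0.65 in the middle and -0.67 at the 5′ end, so the size of a Gapdh difference depended on which stretch of the transcript was read. Gapdh probe sets shared with a pseudogene or other genes differed by -0.05 and -0.13.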
